A study of Mus musculus with 3 samples.

Results

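The genes described here encode the proteins that mark and license replication origins in mouse cells: the 6 subunits of the origin recognition complex (Orc1 to Orc6), the loading factors Cdc6 and Cdt1, and geminin (Gmnn). They were chosen by gene symbol, with earlier results of these data known, and all 9 were found among the 50043 gene IDs of the deposited expression table. RNA was sequenced from KH2 cells, a mouse embryonic stem cell line, here with an inducible knockout of Pold3, the gene for an accessory subunit of DNA polymerase delta. All 3 libraries carry this knockout allele, and no library without it was analysed here. There was 1 library from each of the passages P0, P1 and P2, and the labels give neither the inducing agent nor when it was applied relative to P0. Nothing compared here was replicated, so values are given without p-values.

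Licensing is the step that prepares origins before DNA replication begins. The origin recognition complex binds DNA and recruits Cdc6, and Cdt1 then brings in the MCM helicase, which is loaded around the double helix while the cell is in G1. Once S phase starts, geminin binds and blocks Cdt1, and Cdt1 is also degraded, so that no origin is loaded again in the same cycle. Embryonic stem cells divide rapidly with a short G1, and genes of this pathway are generally well expressed in them. Several of them are known targets of E2F transcription factors.

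Levels are given as FPKM, which is reads per 1000 bases of gene and per 1000000 reads of the library. Library totals, in reads and recovered from the FPKM values, were 23213528 (P0), 18059914 (P1) and 22405670 (P2). Pold3, the targeted gene, measured 49.2 FPKM at P0, 13.0 at P1 and 11.6 at P2, so both later libraries were low. The 10 stem cell markers examined, among them Pou5f1 and Sox2, were each at 102 FPKM or more in every library, with summed levels of 4466, 4299.7 and 4594 FPKM. They were not steady: Esrrb measured 221, 127 and 118 FPKM, a log2(FPKM + 1) difference of -0.90 at P2 against P0. Against P0, Zfp42 differed by -0.50 at P1 and -0.27 at P2, and Nanog by -0.11 at P1 and 0.42 at P2. Of 12 fibroblast markers, examined because stem cells are often grown on feeder fibroblasts, 3 reached 1 FPKM at P0, 3 at P1 and 4 at P2. Their summed level was 9.44, 19.1 and 22.4 FPKM, with Postn at 0 throughout and Twist2 at 0 at P1 and P2. Of the 4 that reached 1 FPKM, Col1a1 rose from 1.98 to 5.63 and 7.09 FPKM, and Thy1 from 4.21 to 9.83 and 10.996. Fbn1 measured 0.887, 1.26 and 1.73 FPKM, and Loxl1, lower at both later passages than at P0, 1.29, 0.974 and 1.11. The part of these markers and of other cell types in the differences below was not tested. In bulk RNA, a change in the share of cells in one phase or type and a change in RNA per cell cannot be told apart.

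The genes' start regions are shown first because several of these genes are known E2F targets. Promoter windows from RefSeq (GRCm38.p6), running from 250 bases before to 50 after each annotated start, matched 8 of the 9 genes, with Gmnn unmatched. The E2F letters TTTCCCGC, TTTGGCGC, TTTCGCGC and TTTGCCGC, searched on both strands, occurred in windows of 4 of these 8 genes (Cdc6, Cdt1, Orc1 and Orc3). Over all 27025 genes in the table, 2.6% had such a match. A match is a description of letters and not evidence of binding. The 30 bases around each match are printed 5′ to 3′ on the gene's strand, with the matching letters in capitals, and Orc6 is added with its CCAAT box letters (CCAAT on the opposite strand).
Cdc6: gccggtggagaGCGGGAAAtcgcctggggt
Cdt1: gggaactaccttTTTGGCGCcatggcgcaa
Orc1: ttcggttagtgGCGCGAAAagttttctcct
Orc3: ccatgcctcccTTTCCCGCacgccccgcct
Orc6: agcggcttttcgATTGGcccacttaaaatc
These stretches lie at chr11:98908002-98908031 (plus strand) for Cdc6, chr8:122568035-122568064 (plus) for Cdt1, chr4:108579416-108579445 (plus) for Orc1, chr4:34614965-34614994 (minus) for Orc3 and chr8:85299566-85299595 (plus) for Orc6. The match of Cdt1 begins at base 33 after the start, and the others lie before their starts. The CCAAT letters were found in 4 of the 8 genes (Orc1, Orc2, Orc4 and Orc6) against 41.1% of all genes, and GGGCGG, the core of SP-type sites, in 6 of 8 against 38.2%. TTTGAA, the core of the CHR element of genes active late in the cycle, was in none of the 8 genes and in 20.2% of all genes.

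Cdc6 and Orc6 stood highest above P0 at both later passages, and both differed from P0 by less than 2-fold. In FPKM as deposited, Cdt1 and geminin, the activator and its inhibitor, were within a few percent of their P0 levels at P2. The other subunits moved in both directions by small amounts. Genes reaching 1 FPKM in 1 or both libraries were compared, and a rise or fall was counted from a log2(FPKM + 1) difference of 1 upward. By this rule 0 of the 9 genes rose or fell at P1 against P0, where 4.67% of the 13288 genes compared did (4.12% higher, 0.549% lower). At P2 against P0 it was again 0 of 9, with 7.88% of 13472 genes (6.72% higher, 1.16% lower). At P2 against P1 it was 0 of 9, with 1.66% of 13585 genes (0.78% higher, 0.883% lower). At a smaller difference of 0.5 on the same scale, 1 of the 9 passed at P2 against P0, Cdc6, where 24.7% of all genes did (18.8% higher, 5.89% lower). At P1 against P0, 0 of 9 passed it, with 18% of all genes (14.4% higher, 3.56% lower), and at P2 against P1 0 of 9, with 8.95% (5.22% higher, 3.73% lower).

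**Figure D1:**
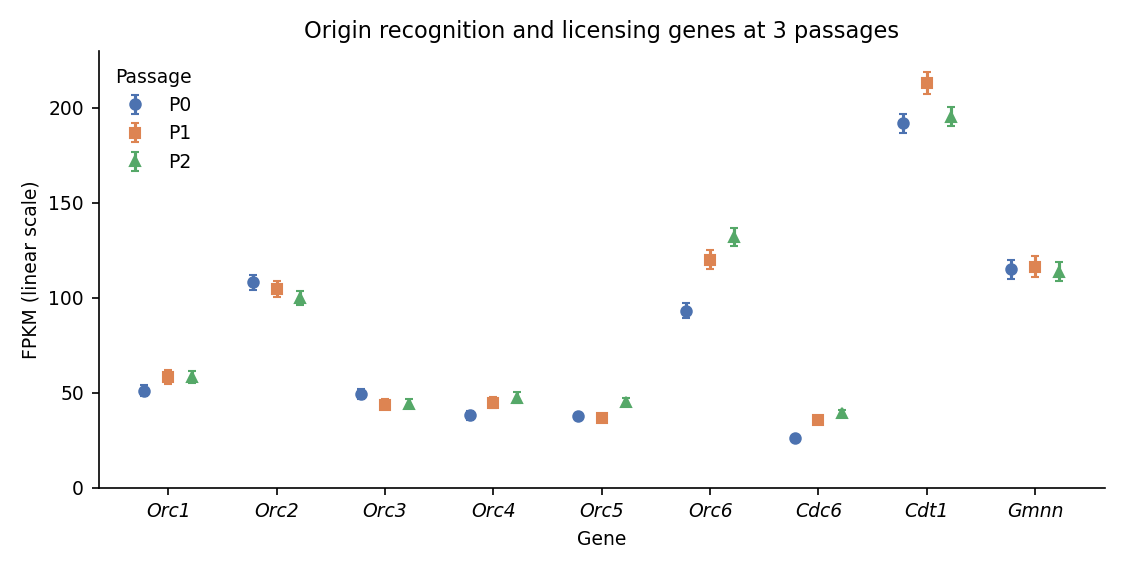
FPKM of the 9 genes (vertical axis, linear from 0) in the libraries of passages P0 (circles), P1 (squares) and P2 (triangles). Points are single libraries and bars are exact 95% Poisson intervals on the reads, which cover counting error only; Orc6 ran from 93.3 FPKM at P0 to 132 at P2 while Gmnn stayed between 114 and 116.

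Orc1 is the largest subunit, an ATPase whose protein is removed from chromatin after S phase begins in mammalian cells. Orc1 (ENSMUSG00000028587) measured 51.0 FPKM at P0, 58.4 at P1 and 58.3 at P2, from 1179, 1050 and 1300 reads. The P0 library was the low one, and the later libraries were alike. The ratio of P1 to P0 was 1.14 (95% counting interval 1.05 to 1.25) and that of P2 to P0 was also 1.14 (1.05 to 1.24). At P2 the log2(FPKM + 1) difference of 0.19 became 0.06 with median-of-ratios scaling. That scaling divides each library by its median ratio to the geometric mean of the libraries, over IDs above 0 in all of them. Over the genes compared at P2 against P0, it moved the median from 0.07 to -0.05. The counting intervals are exact conditional intervals on whole reads recovered from the FPKM values. They compare 1 library with another, and they hold the error of counting alone: without molecular identifiers, reads need not be separate molecules.

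Orc2, Orc3, Orc4 and Orc5 form the core of the complex with Orc1. Orc2 (ENSMUSG00000026037) measured 108 FPKM at P0, 105 at P1 and 100.1 at P2, from 3221, 2430 and 2879 reads. It was lowest at P2, with a ratio to P0 of 0.926 (interval 0.880 to 0.974). Orc3 (ENSMUSG00000040044) measured 49.2, 43.8 and 44.3 FPKM in the same order, from 1536, 1064 and 1335 reads. P0 was the high library for Orc3, which had ratios of 0.890 (0.823 to 0.963) at P1 and 0.900 (0.836 to 0.970) at P2. Orc3 carries an E2F match in the sequences above, as Orc1, Cdc6 and Cdt1 do. Of these, Orc1 and Cdc6 lay above P0 at P2, Orc3 below it, and the interval of Cdt1 held 1.

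Orc4 (ENSMUSG00000026761), an ATPase-fold subunit, measured 38.2, 44.7 and 47.5 FPKM at P0, P1 and P2, from 977, 890 and 1173 reads. P0 was the low library, and the ratio to P0 was 1.17 at P1 (1.07 to 1.28) and 1.24 at P2 (1.14 to 1.36). Orc5 (ENSMUSG00000029012), also of the ATPase fold, measured 37.7, 36.9 and 45.2 FPKM, from 1547, 1178 and 1791 reads. Only its P2 library stood apart. The ratio of P2 to P1, 1.23 (1.14 to 1.32), was the highest of the 9 genes in that comparison, and the interval of P1 against P0 held 1 (0.979, interval 0.907 to 1.06).

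Orc6 is the smallest subunit and the one least tightly bound to the rest of the complex. Orc6 (ENSMUSG00000031697) measured 93.3 FPKM at P0, 120.0 at P1 and 132 at P2, from 2115, 2117 and 2888 reads. Each later library was higher than the one before it. Its level at P1 was 1.29 times that at P0 (interval 1.21 to 1.37), and at P2 1.41 times (1.34 to 1.497), a difference of 0.50 on the log2(FPKM + 1) scale that fell just under the smaller threshold. The step from P1 to P2 had a ratio of 1.10 (1.04 to 1.16).

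Cdc6 is the ATPase related to Orc1 that completes the loading ring with the origin recognition complex. Cdc6 (ENSMUSG00000017499) measured 26.2 FPKM at P0, 35.7 at P1 and 39.4 at P2, from 1928, 2041 and 2797 reads. As for Orc6, each later library was higher, and the P0 value was the lowest of all 9 genes in FPKM. The ratio to P0 was 1.36 at P1 (1.28 to 1.45) and 1.503 at P2 (1.42 to 1.59). On the log2(FPKM + 1) scale the differences were 0.43 and 0.57. Of all genes compared, 17.4% had a higher difference than Cdc6 at P1 and 16.0% at P2. The corresponding shares for Orc6 were 21% and 18.9%. Many genes outside this pathway thus differed from P0 by more. These shares include genes from 1 FPKM upward. A rise of 0.5 or more at P2 against P0 was found in 2530 of 13472 genes compared. Among genes reaching 5 FPKM in 1 or both libraries, it was found in 1324 of 9505.

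Cdt1 brings the helicase to the origin and is the factor that geminin inhibits. Cdt1 (ENSMUSG00000006585) had the highest level of the 9 genes in each library, at 192 FPKM at P0, 213 at P1 and 195 at P2, from 6085, 5253 and 5981 reads. P1 was the high library, and P0 and P2 were close together. Its ratio was 1.11 at P1 against P0 (1.07 to 1.15), 1.02 at P2 against P0 (0.982 to 1.06) and 0.918 at P2 against P1 (0.884 to 0.953). With median-of-ratios scaling, the log2(FPKM + 1) difference of Cdt1 went from 0.15 to 0.03 at P1 and from 0.03 to -0.11 at P2. Its scaled interval at P2 against P0 lay below 1.

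Geminin (Gmnn, ENSMUSG00000006715) measured 115 FPKM at P0, 116 at P1 and 114 at P2, from 2107, 1661 and 2011 reads. The P1 library was the highest and P2 the lowest, at 0.976 of P1. The intervals of its 3 ratios all held 1, at 0.950 to 1.08 from P0 to P1, 0.930 to 1.05 from P0 to P2 and 0.914 to 1.04 from P1 to P2. An interval that holds 1 does not show that the levels were equal. With median-of-ratios scaling the log2(FPKM + 1) difference of Gmnn against P0 was -0.10 at P1 and -0.15 at P2. Both scaled intervals of Gmnn against P0 lay below 1. The level of Cdt1 relative to geminin, both in FPKM, was 1.67 at P0 (interval 1.59 to 1.75), 1.83 at P1 (1.73 to 1.93) and 1.72 at P2 (1.63 to 1.81). This ratio was 1.10 times as high at P1 as at P0 (approximate interval 1.02 to 1.18, from the counting error of the log ratio) and 1.03 times as high at P2 (0.959 to 1.11).

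**Figure D2:**
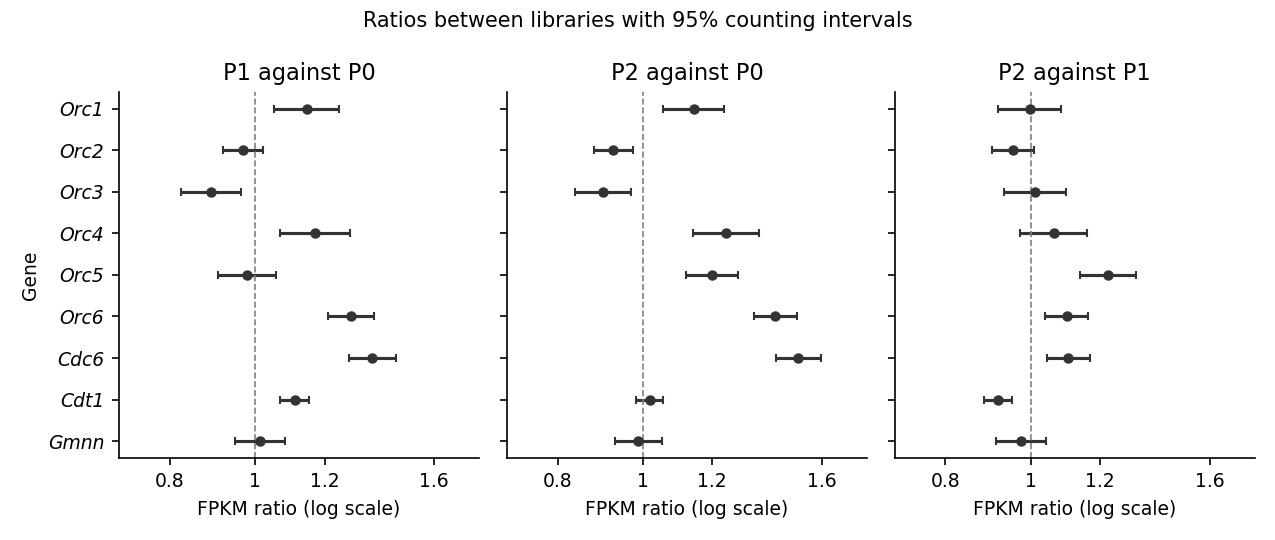
Ratio of FPKM between libraries for each gene (horizontal axis, log scale), in 1 panel for each pair of passages. Bars are exact 95% counting intervals and the dashed line marks a ratio of 1; Cdc6 and Orc6 lie furthest to the right in both comparisons with P0, and Orc5 in P2 against P1.

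Counting error was small enough at these levels to place most ratios on 1 side of 1. Against P0, the interval lay above 1 for 5 genes and below 1 for 1 gene at P1, and above for 5 and below for 2 at P2. Such intervals excluded 1 for 56.9% of all genes at P1 (34.4% upward, 22.5% downward) and 65.2% at P2 (39.5% upward, 25.6% downward). Between P1 and P2 it lay above 1 for 3 genes (Orc5, Orc6 and Cdc6) and below for Cdt1, where 42.8% of all genes had an interval that excluded 1 (24% upward, 18.8% downward). All 9 genes were above 5 FPKM, and among genes reaching 5 FPKM in 1 or both libraries the share was 63.2% at P1 against P0 (35.1% upward, 28% downward) and 70.7% at P2 against P0 (39.5% upward, 31.2% downward). For P2 against P1 it was 49.2% (26.8% upward, 22.4% downward). The counts of 6, 7 and 4 of the 9 genes were near these shares. The lean to values above P0 depended on scaling: with median-of-ratios scaling the intervals lay above 1 for 2 genes and below for 4 at P1, and above for 4 and below for 4 at P2. Over all genes that scaling gave 24.0% above and 34.8% below at P1, and 29.0% above and 37.3% below at P2. Orc6 and Cdc6 lay above 1 and Orc2, Orc3 and Gmnn below it at both passages under that scaling. Both comparisons with P0 share its single library.

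As a set, the 9 genes had a median log2(FPKM + 1) difference of 0.15 at P1 against P0, where the median over all genes compared was 0.06. The medians were 0.19 and 0.07 at P2 against P0 and 0.02 and 0.02 at P2 against P1. Median-of-ratios scaling lowered the median over all genes by 0.11 at P1 and 0.12 at P2 against P0, to -0.05 in both comparisons. The median of the 9 genes then stood at 0.03 and 0.06, still above that of all genes. At P2 against P0, 7 of the 9 lay between the quartiles of all genes (-0.16 and 0.37), and Orc6 and Cdc6 lay above them.

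The relation of Cdc6 and Orc6 to the other licensing genes was also read within libraries. The level of Cdc6 relative to Orc6 was 0.281, 0.297 and 0.299 at P0, P1 and P2, and the ratio of these values between P2 and P0 was 1.06 (approximate interval 0.980 to 1.15). Cdc6 relative to Cdt1 went from 0.137 to 0.168 and 0.202, which was 1.48 times as high at P2 as at P0 (1.38 to 1.58). Cdc6 relative to Orc1 was 0.514, 0.611 and 0.677, and 1.32 times as high at P2 (1.19 to 1.45). The change of Cdc6 relative to Cdt1 and Orc1 was thus larger than counting error, and that relative to Orc6 was not. The ratios with Cdc6 were not planned, and Cdc6 and Orc6 stood highest above P0 in these same libraries. This pattern of ratios follows in part from that choice. A scaling by 1 factor per library leaves these ratios as they are.

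In FPKM, the order of levels at P0 was Cdt1, Gmnn, Orc2, Orc6, Orc1, Orc3, Orc4, Orc5 and Cdc6. Neighbours whose counting intervals did not separate them were Orc1 and Orc3 (ratio 1.04, 0.959 to 1.12) and Orc4 and Orc5 (1.01, 0.935 to 1.10). At P2, Orc6 had moved to the second place above Gmnn (1.16, 1.10 to 1.23), and neither Orc4 and Orc5 nor Orc5 and Orc3 could be separated. At P1, the pairs Orc6 and Gmnn, Orc4 and Orc3, and Orc5 and Cdc6 could not be separated. Of the summed FPKM of the 6 subunits, Orc6 made up 24.7%, 29.4% and 30.9% at P0, P1 and P2, and Orc2 28.6%, 25.6% and 23.4%.

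This order rests on the gene length used. The lengths behind the FPKM of all 9 genes lay within 1 base of the mean length of the gene's annotated transcripts, short ones included, and the longest coding transcript was 1.19 times (Orc5) to 3.69 times (Orc4) as long. With the longest coding transcript as the length, Orc1 stood at 16.9 on the same scale at P0 in place of 51.0 FPKM, and Orc4 at 10.4 in place of 38.2. Cdc6 stood at 18.0 and was no longer the lowest, and Orc4 was the lowest in all 3 libraries. With that length, Orc6 made up 32.9%, 38.9% and 40.0% of the summed level of the 6 subunits at P0, P1 and P2. Orc2 made up 20.6%, 18.4% and 16.4%, so Orc6 was above Orc2 in all 3 libraries. Cdt1 was highest with either length in every library. Ratios between genes within a library rest on the lengths too, which their counting intervals do not cover. With the longest coding transcripts, Cdt1 relative to Gmnn was 1.49 at P0 (1.41 to 1.56) and 1.63 at P1 (1.54 to 1.72). At P2 their levels were then 121.9 and 79.6. The ratio between libraries for 1 gene does not change with its length.

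**Figure D3:**
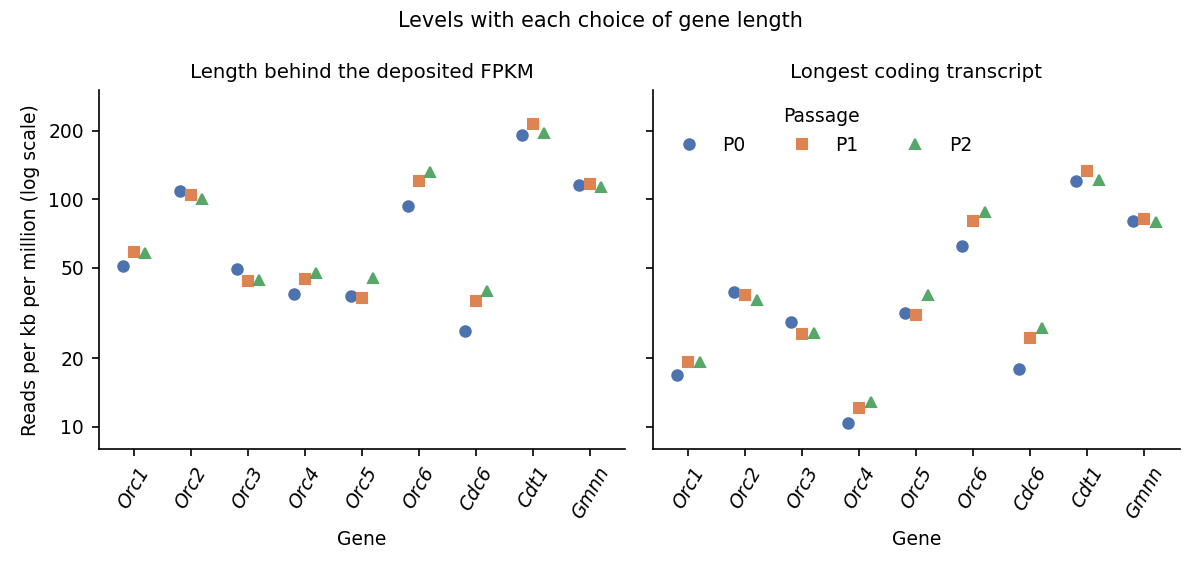
Level of each gene in reads per 1000 bases per 1000000 reads (log scale) in the libraries of P0, P1 and P2, computed with the length behind the deposited FPKM (left) and with the longest coding transcript (right). Orc4 is at 38.2 in the left panel and 10.4 in the right one at P0, where it is the lowest gene, and Cdt1 is highest in both panels.

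Reads of overlapping genes could bear on some of these values, and no source used here gives the strand of the libraries. In the GENCODE M21 annotation, exons of Nif3l1 on the opposite strand share 29.8% of the exon bases of Orc2, and Nif3l1 measured 39.6, 42.1 and 38.5 FPKM. Exons of Vps35 share 6.9% of those of Orc6. Vps35, a retromer subunit gene, measured 143, 131 and 130.4 FPKM, so it was highest at P0, where Orc6 was lowest. Acvr2a and Mbd5 share 6% and 1.8% of the exon bases of Orc4, each at 4.31 FPKM or less in every library. Orc1 and Orc5 overlap Gm12743 and Gm15421, each under 1 FPKM, and Orc3, Cdc6, Cdt1 and Gmnn overlap no other annotated exon. The part of shared reads in the differences was not tested.

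A feature that the choice of genes did not use is their position. Each of the 6 subunit genes starts within 1000 bases of a gene on the opposite strand (Prpf38a for Orc1, Gm15834 for Orc2, Rars2 for Orc3, Mbd5 for Orc4, 6030443J06Rik for Orc5 and Vps35 for Orc6), and Cdc6, Cdt1 and Gmnn do not. Among 22028 protein-coding genes of the annotation, 18.4% have such a neighbour. The log2(FPKM + 1) difference of Vps35 at P2 against P0 was -0.14 where that of Orc6 was 0.50. Rars2, a mitochondrial arginyl-tRNA synthetase gene, had 0.22 where Orc3 had -0.15. Prpf38a, a splicing factor gene, had 0.14 beside 0.19 for Orc1. Mbd5 had -0.06 beside 0.31 for Orc4. The noncoding genes Gm15834 and 6030443J06Rik, both under 1 FPKM, had 0.11 beside -0.11 for Orc2 and 0.13 beside 0.26 for Orc5.

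Genes whose products act with the licensing factors were examined next. Of 27 genes for the helicase, its loading and the firing of origins, 25 reached 1 FPKM. Past 2-fold were 0 of 25 at P1 and 0 of 25 at P2 against P0, and 0 of 25 at P2 against P1, where 4.67%, 7.88% and 1.66% of all genes were. Their median difference was 0.04 at P1 and 0.06 at P2 against P0, beside 0.06 and 0.07 over all genes. The helicase genes Mcm2 to Mcm7, which the licensing factors load, lay between 88.0 FPKM (Mcm4 at P0) and 548 FPKM (Mcm5 at P2). Ticrr, which encodes the firing factor treslin, measured 67.8, 71.6 and 90.1 FPKM, and its partner Mtbp 23.4, 19.0 and 16.4 FPKM. Ticrr was highest at P2 and Mtbp lowest there, with differences from P0 of 0.40 and -0.49. Gins3, a subunit of the helicase cofactor GINS, differed by 0.30. Mcidas, a geminin relative that drives multiciliated cell formation, was at 0.303 FPKM or less.

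Genes that remove or protect licensing factors numbered 25, all measured. Past 2-fold were 0 of 25 at P1 and at P2 against P0, beside 4.67% and 7.88% of all genes, and the median difference was 0.06 at both, beside 0.06 and 0.07 over all genes. They include Skp2 and Dtl, which direct ubiquitin ligases to Cdt1, and these measured 32.6, 35.4 and 34.1 FPKM and 33.2, 40.6 and 39.9 FPKM. Ddb1, the adaptor of the ligase that Dtl joins, measured 298, 367 and 388 FPKM and differed by 0.38 at P2. The deubiquitinase gene Usp7 measured 305, 246 and 213 FPKM, a difference of -0.51 at P2. The ligase gene Huwe1 and the histone H4 methyltransferase gene Kmt5a, whose protein is degraded like Cdt1, differed by -0.41 and -0.38.

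Of 18 genes for E2F factors, their partners and the pocket proteins that restrain them, 1 rose and 0 fell at P2 against P0, and 0 did either at P1 against P0. Over all genes, 6.72% were higher at P2 by this rule and 4.12% at P1, so 1 of 18 is near the background. The gene that rose was Rb1, the retinoblastoma protein gene, at 13.8, 27.1 and 30.9 FPKM, with a ratio of P2 to P0 of 2.24 (1.98 to 2.53). Its relative Rbl1 measured 9.84, 5.69 and 6.997 FPKM and was lowest at P1. The median difference of this list at P2 was 0.07. E2f6, a repressor of the family, and Lin37, of the DREAM complex, differed by 0.34 and 0.40. E2f1 measured 27.2, 28.5 and 33.0 FPKM.

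Genes of the G1/S and G2/M phases were set beside these, since licensing belongs to G1 and is blocked later in the cycle. The G1/S genes had a median difference of 0.20 at P1 (25 genes compared) and 0.24 at P2 (26 genes) against P0, where the medians over all genes were 0.06 and 0.07. Of them 0 passed 2-fold, where 4.67% and 7.88% of all genes did. At the threshold of 0.5, 2 of them (Ccnd1 and Ccne2) were higher and 0 lower at P2, where 18.8% and 5.89% of all genes were. Ccnd1, the cyclin D1 gene, measured 69.0, 103 and 102 FPKM, and Ccne2, a cyclin E gene, 10.9, 13.0 and 16.0. Ung, a uracil glycosylase gene, and Cdk6, a cyclin D kinase gene, differed by 0.46 and -0.46 at P2. The 24 G2/M genes had medians of -0.08 and -0.01 in the same comparisons, and again 0 passed 2-fold. Mki67, a proliferation marker, measured 64.1, 43.5 and 40.4 FPKM, a difference of -0.65 at P2, and Plk1, Kif11 and Nusap1, genes of mitotic progression and the spindle, differed by -0.33, -0.29 and -0.29. The share of cells in each phase was not measured, and its part in the levels of Cdc6 and Orc6 was not tested.

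**Figure D4:**
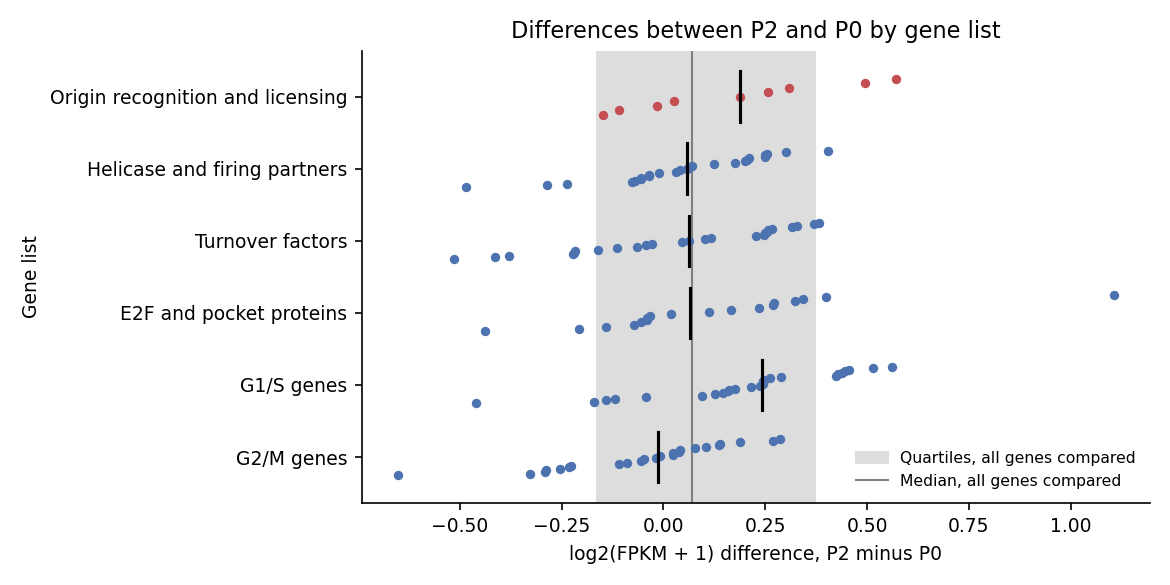
Difference of log2(FPKM + 1) between P2 and P0 (horizontal axis) for each gene of 6 lists with at least 1 FPKM in 1 or both libraries; points are genes, black bars are list medians, and the grey band and line give the quartiles and median of all genes compared. The licensing genes have a median of 0.19 and the G1/S genes of 0.24, against 0.07 for all genes, and Rb1 is the point at 1.11.

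The genes whose pattern over the 3 libraries was nearest to each licensing gene were found by the distance between centred log2(FPKM + 1) profiles, among 8560 other named genes with at least 5 FPKM throughout. With 3 libraries, a great many genes lie close: 277 within a distance of 0.1 of Cdc6, 361 of Orc6 and 1669 of Gmnn. Nearest to Cdc6 were Med22 (38.5, 52.6 and 57.8 FPKM) and Cars2, and to Orc6 Ppp2r5d (47.9, 61.7 and 68.0 FPKM) and Slc25a44. For Cdt1 they were Exosc1 and Rnh1, and for Gmnn Dnttip2 and Ubr1. For Orc1 they were Gfpt1 and Lsg1, for Orc2 Rnmt and Gnb2, for Orc3 Tra2b and Cct5, for Orc4 Clpp and Atg13, and for Orc5 Pole4 and Trak2. The distances of these nearest genes ran from 0.0012 to 0.011, and the likeness describes 3 libraries only.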

How the data were processed

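RNA was sequenced from 1 library per passage (P0, P1, P2). The authors deposited 1 table of FPKM values. Per the submitters' processing notes, Bowtie2 2.0.6, TopHat2 2.0.9 and the mouse build mm9 were involved. For the counting program, its annotation and the strand: not given in the sources used here. Of 50043 IDs, 49326 matched a symbol. The 9 genes and the gene lists were chosen with earlier results of these data known. Reads were recovered as library totals and gene lengths that make the deposited FPKM values whole. Such totals are fixed only up to a common multiple: of the candidates for P0, 23213528 was the smallest with the best match of lengths to GENCODE M21 (462 of 594 genes within 1 base). The candidate 11606764 matched 56, and 46427056 matched 462 but would make every count even, where 86.5% of IDs have an odd one at the total used. Read counts and counting intervals rest on this choice. Recovered reads summed to 100.32% (P0), 100.29% (P1) and 100.3% (P2) of the totals used, and the source of this excess was not tested. Of 26291 IDs above 0, 26288 (99.99%) were whole to a relative error of 1e-12, and changing the totals by 1 read left 0 of 500 genes whole. Over all IDs, 82.2% of lengths lay within 1 base of the mean M21 transcript. The log2(FPKM + 1) scale understates changes of low genes. The text names the 9 genes, the 4 genes of each list of partners, turnover factors, E2F and pocket proteins, G1/S and G2/M genes with the largest difference between P0 and P2 and any past 2-fold, Pold3, and the 2 nearest genes of each of the 9. Mcm4, Mcm5, Skp2, Dtl, E2f1, Aurkb, Kif20a, the named markers and the overlapping or neighbouring genes were added after their values were seen. The steps were tested on simulated data. Alternatives used another pseudocount (0.1), another floor (FPKM 5, or no floor), scaling by median of ratios, a common sum of 1000000 FPKM, or quantile normalization. The longest coding transcript as length and the scaled counting intervals were added after seeing the data. Work was done in Python 3.11.15 with scipy 1.17.1, numpy 2.4.6, matplotlib 3.10.9 and pandas 2.3.3.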

Additional observations from a re-analysis of the deposited data

How the results depend on the processing

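No paired analysis was possible because each passage has 1 library. The floor alternatives cannot move a difference of these 9 genes, which all exceed it. Under the other 4 alternatives, 104 of 108 differences kept their sign, and 15 left their counting interval, all with median-of-ratios scaling: 6 of 9 at P1 and 9 of 9 at P2 against P0. There Orc1 at P2 was 0.06, Orc2 -0.24 and Gmnn -0.15. With that scaling, chosen for the intervals after seeing the data, those above 1 went from 5 to 2 at P1 and those below 1 from 1 to 4 at P1, from 2 to 4 at P2 against P0 and from 1 to 2 at P2 against P1. The 4 that changed sign all had intervals that held 1 on the deposited scale: Gmnn at P1 against P0 (-0.10 with median-of-ratios scaling, -0.01 with quantile normalization), Cdt1 at P2 against P0 (-0.11 with median-of-ratios scaling) and Orc1 at P2 against P1 (0.003 when rescaled). Cdc6 and Orc6 at P2 against P0 ranged from 0.44 to 0.59 and from 0.37 to 0.51. The count of the 9 genes past 0.5 at P2 against P0 was 2 with a pseudocount of 0.1 and 2 when rescaled to 1000000, since Orc6 lies at that threshold, and 0 with median-of-ratios scaling, and the count past 2-fold was 0 under all 6 alternatives. With that scaling the median of the 9 genes was 0.034 at P1 and 0.059 at P2 against P0, beside -0.050 and -0.052 over all genes compared. Genes past 2-fold numbered 621 from P0 to P1, 1061 from P0 to P2 and 226 from P1 to P2. They were 1254, 1855 and 635 with a pseudocount of 0.1, 342, 599 and 84 with a floor of FPKM 5, and 380 for P2 against P1 when rescaled. The share that rose was 88.2% at P1 and 85.3% at P2 against P0, and 74.9% and 70.5% with quantile normalization. For P2 against P1 it was 46.9%, and 58.3% with a pseudocount of 0.1. With 1 library per passage, differences between cultures cannot be told apart from passage.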

Other observations

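The relatives of geminin were near the limit of detection, where geminin itself was well expressed. Gmnc, which encodes a coiled-coil protein of the geminin family that acts in multiciliated cells, had 9, 7 and 3 reads at P0, P1 and P2, and Mcidas 2, 3 and 16 reads. The other MCM family genes differed in level from the loaded helicase: Mcm8 measured 16.9, 18.9 and 20.3 FPKM and Mcm9, its partner in recombination, 1.96, 1.55 and 2.02 FPKM. Recql4, a helicase gene with a role in origin firing, measured 11.1, 17.4 and 13.4 FPKM and was highest at P1, with a ratio to P0 of 1.56 (counting interval 1.44 to 1.70) there and 1.21 (1.11 to 1.31) at P2. Lrwd1, whose protein binds the origin recognition complex and stabilises it on chromatin, measured 72.1, 80.4 and 83.4 FPKM. These genes were picked for this paragraph after their values were seen.

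Fen1, the flap endonuclease gene among the G1/S genes, was listed at 0.903, 0.889 and 1.254 FPKM from 47, 36 and 63 reads, while Pold1 and Prim1 in the same list measured 119 and 52.5 FPKM at P0. It was singled out after its value was seen.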
